A study of Mus musculus with 32 samples.

Results

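Binding of the transcription factors Runx1 and Runx3 was compared in Scid.adh.2c2, a mouse pro-T-like cell line, from the peak list that the authors deposited for each factor. The Runx1 list held 13664 peaks and the Runx3 list 20523, together 34187 of the 215616 peaks in the 8 deposited lists of the series. All peaks of both lists were used. A peak was called common where a Runx1 and a Runx3 interval overlapped by at least 1 bp, and otherwise Runx1-only or Runx3-only. There were 12972 common peaks, 692 Runx1-only peaks and 7551 Runx3-only peaks.

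Runx proteins bind DNA through the Runt domain, as heterodimers with Cbfb, a partner that does not contact DNA itself and strengthens the binding. All Runx family members recognise closely similar sequences. Runx1 is needed for blood stem cell emergence and early thymocyte development, and Runx3 is best known in cytotoxic T cells, NK cells and group 2 innate lymphoid cells. Both can act as activators or, with corepressors of the Tle family, as repressors.

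The study compared Scid.adh.2c2 with ILC2/b6, a mouse line of group 2 innate lymphoid cells, by ChIP-seq of Bcl11b, GATA3, Runx1 and Runx3 and by RNA-seq after a guide RNA against Bcl11b, a zinc finger factor of T-lineage commitment. For ChIP-seq the cells carried no labelled guide. The labels' protocol gives fixing with disuccinimidyl glutarate (DSG) and then formaldehyde for all 4 factors, but the input libraries are titled either FA or DSG, and which ChIP each belongs to is not said, so the fixing may have differed between factors. Runx1 was precipitated with the antibody ab23980 and Runx3 with an antibody donated by another laboratory, so antibody and factor cannot be told apart. RNA came from cells transduced with sgControl-CFP (here sgCont) or sgBcl11b-CFP (sgBcl11b), 2 libraries each. Each factor had 2 ChIP libraries, but 1 list was made from both, so binding had no replicate. Peak shares are therefore given as descriptions with 95% Wilson intervals, which cover counting error only. The labels do not say that replicates came from separate cultures, so p-values measure only the spread between these libraries, which may be technical.

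The RNA libraries held 34.7 to 43.7 M reads. Of 10 pro-T markers, 9 reached 1 RPKM (reads scaled to transcript length and library size) in both sgCont libraries, and Rag2 was at 0.763 and 0.655 RPKM. Of 4 B-cell markers 3 were at 0 in both sgCont libraries, as were 2 of 3 erythroid markers, and none reached 1 RPKM. Summed over 4 NK-cell markers the level was 0.28 and 0.288 RPKM in sgCont and 39.4 and 38.2 RPKM in sgBcl11b, nearly all from Ncr1. Summed over 5 myeloid markers it was 2.02 and 1.75 RPKM in sgCont and 6.87 and 6.2 RPKM in sgBcl11b. Summed over 6 ILC2 markers it was 31.9 and 32.2 RPKM in sgCont, nearly all from Il17rb, and 20.3 and 21.1 RPKM in sgBcl11b. Bcl11b mRNA was 47.0 and 49.5 RPKM in sgCont and 47.1 and 46.8 RPKM in sgBcl11b, which did not separate the groups, so the mRNA level gave no check of the guide. Its log2 difference was -0.04 ± 0.04 (SE, limma adjusted p = 0.455), against -0.17 and adjusted p = 0.00856 with median-centred values.

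Promoter sequences are shown for 4 genes that carried a peak at the promoter and that differed between the guides: a common peak at a gene that fell (Rag1), a common peak at a gene that rose (Cxcr6), and 1 gene with Runx1-only and 1 with Runx3-only peaks (Cited2, Igtp). They are the 250 bases before the transcription start of the only RefSeq promoter entry of each gene on GRCm38.p6, printed 5′ to 3′ on the strand of the gene. Capitals mark the core letters of the RUNX motif, TGTGGT or its reverse complement ACCACA. The peak positions themselves are given on mm9, the build of the deposited lists, and were matched by gene only.
Rag1 (common peak at chr2:101489637-101489889 on mm9, sequence at chr2:101649533-101649782 on GRCm38.p6, minus strand): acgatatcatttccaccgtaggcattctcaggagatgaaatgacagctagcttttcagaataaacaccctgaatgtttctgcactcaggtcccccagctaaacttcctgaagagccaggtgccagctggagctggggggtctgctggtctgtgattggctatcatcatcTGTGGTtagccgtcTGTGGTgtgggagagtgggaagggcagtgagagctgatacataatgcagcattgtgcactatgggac
Cxcr6 (common peak at chr9:123715466-123715718 on mm9, sequence at chr9:123806227-123806476 on GRCm38.p6, plus strand): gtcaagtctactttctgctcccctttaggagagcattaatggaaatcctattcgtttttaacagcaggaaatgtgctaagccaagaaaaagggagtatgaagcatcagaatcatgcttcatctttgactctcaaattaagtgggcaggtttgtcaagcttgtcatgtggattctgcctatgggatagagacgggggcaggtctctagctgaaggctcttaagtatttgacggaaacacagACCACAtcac
Cited2 (Runx1-only peak at chr10:17442928-17443180 on mm9, sequence at chr10:17722978-17723227 on GRCm38.p6, plus strand): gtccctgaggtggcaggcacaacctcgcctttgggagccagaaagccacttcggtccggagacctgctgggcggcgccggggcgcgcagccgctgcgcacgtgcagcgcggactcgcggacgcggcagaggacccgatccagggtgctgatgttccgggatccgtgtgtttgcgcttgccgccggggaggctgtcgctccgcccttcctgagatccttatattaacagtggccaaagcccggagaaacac
Igtp (Runx3-only peak at chr11:58012963-58013219 on mm9, sequence at chr11:58199306-58199555 on GRCm38.p6, plus strand): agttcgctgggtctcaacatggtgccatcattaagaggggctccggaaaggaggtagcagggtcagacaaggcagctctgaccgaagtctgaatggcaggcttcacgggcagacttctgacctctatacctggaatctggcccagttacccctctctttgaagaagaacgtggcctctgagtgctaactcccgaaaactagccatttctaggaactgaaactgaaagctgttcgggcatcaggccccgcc
The Rag1 window held the core 2 times and the Cxcr6 window 1 time, and the Cited2 and Igtp windows did not hold these letters. Windows read but not printed were those of Ankrd37 and Klf2 (common peak), Id2 (Runx1-only) and Arl4d (Runx3-only). None of these held the core, so the printed windows show no contrast between peak classes. A match is a description of letters and not a binding site.

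Nearly all Runx1 peaks lay on a Runx3 peak, while over 1 in 3 Runx3 peaks had no Runx1 peak. The common peaks made up 94.9% of the Runx1 list (95% interval 94.6 to 95.3%) and 63.2% of the Runx3 list (62.5 to 63.9%). Runx1-only peaks were 5.06% of their list and Runx3-only peaks 36.8% of theirs. Every common Runx1 peak paired with a different Runx3 peak. The median pair overlapped by 230 bp, in intervals 253 bp wide for Runx1 and 257 bp wide for Runx3, and the centres were a median of 25 bp apart. Of the 12972 pairs, 388 overlapped by less than 50% of the Runx1 interval. Across common pairs the deposited scores of both factors went together (Spearman rho 0.81 over 12972 sites, a description, since pairs share their locus and the lists their peak caller).

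The single-factor peaks were mostly weak peaks of their own list. The lowest score was 15 in both lists. In the Runx1 list the median score was 27.0 for common and 18.9 for Runx1-only peaks, and in the Runx3 list it was 40.3 for common and 19.9 for Runx3-only peaks. Among Runx3 peaks scoring 15 to 20, 16.6% were common. The share was 50.7% at 20 to 30, 86.7% at 30 to 50, 97.1% at 50 to 100 and 98.6% at 100 and over. Among Runx1 peaks it was already 89.3% at 15 to 20, and all 377 Runx1 peaks of 100 and over were common. Of the Runx3-only peaks 119 scored 50 or more and 20 scored 100 or more, and of the Runx1-only peaks 12 scored 50 or more and none reached 100. A share of 46.5% of Runx1-only peaks had a Runx3 peak within 1 kb, against 8.28% of Runx3-only peaks with a Runx1 peak that near. Scores of different lists were not set against each other.

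**Figure D1:**
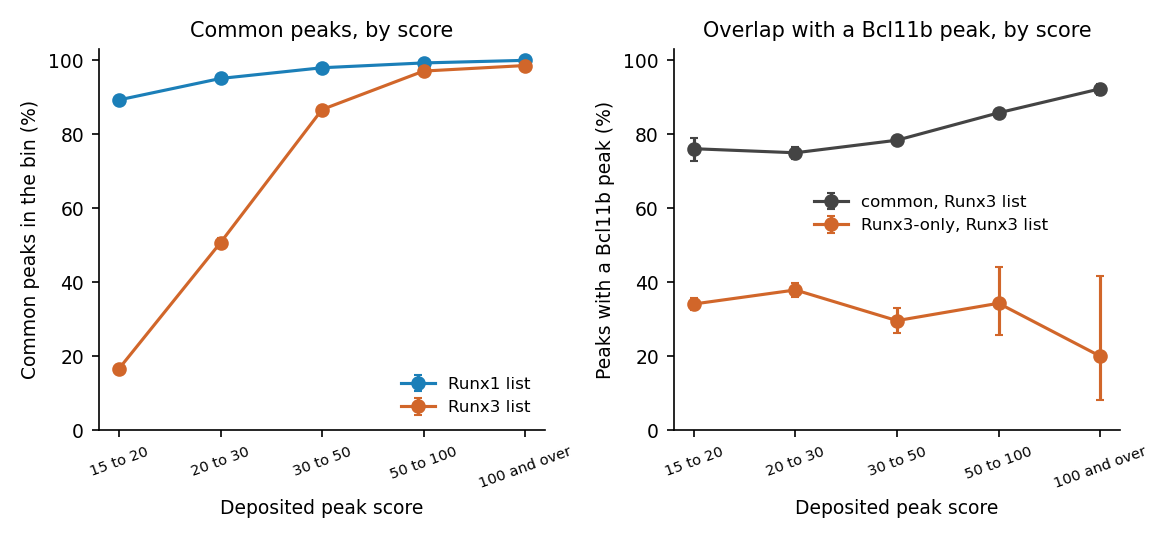
Left, the percent of peaks that were common (y axis) in 5 bins of the deposited peak score (x axis), for the Runx1 and the Runx3 list. Right, the percent of common and of Runx3-only peaks of the Runx3 list that overlapped a Bcl11b peak, in the same bins, with 95% Wilson intervals on all points. Common peaks lay at 16.6% of the weakest and 98.6% of the strongest Runx3 bin, and in each bin the Bcl11b share of Runx3-only peaks was below that of common peaks.

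Common peaks were split between promoters and distal sites, Runx1-only peaks lay mostly at promoters, and Runx3-only peaks were mostly distal. By the authors' annotation, promoter-TSS sites were 39.1% of common peaks (38.3 to 40.0%), 55.2% of Runx1-only peaks (51.5 to 58.9%) and 20.3% of Runx3-only peaks (19.4 to 21.2%). Introns held 27.9%, 20.4% and 37.0% of the classes in the same order. Intergenic sequence held 27.9%, 18.1% and 36.2%. The median distance from a peak centre to the nearest start site was 3634 bp for common, 278 bp for Runx1-only and 11577 bp for Runx3-only peaks. Over 100 kb away lay 7.86%, 4.34% and 10.3%. Within the score bin of 20 to 30 of the Runx3 list the promoter share was 49.5% for common and 20.5% for Runx3-only peaks. In the same bin of the Runx1 list it was 44.3% for common and 56.0% for Runx1-only peaks. The higher promoter share of common over Runx3-only peaks held in the 3 bins up to 50 and turned round above. At 50 to 100 promoters were 31.0% of common (29.4 to 32.6%) and 39.4% of 99 Runx3-only peaks (30.3 to 49.2%), and at 100 and over 16.1% of common (14.3 to 18.1%) and 50.0% of 20 Runx3-only peaks (29.9 to 70.1%).

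Repeat shares ran opposite to promoter shares, lowest for Runx1-only and highest for Runx3-only peaks. Outside promoters, 17.5% of common peaks (16.7 to 18.3%), 12.6% of Runx1-only peaks (9.34 to 16.7%) and 23.6% of Runx3-only peaks (22.5 to 24.7%) were annotated to a repeat. Long terminal repeats, the ends of retroviral elements, held 4.79% of all common and 6.9% of all Runx3-only peaks. Simple repeats held 0.339% and 1.92%. Repeat annotations were found only outside promoters, so these shares of all peaks also carry the difference in promoter share. Counted over peaks outside promoters, long terminal repeats held 622 of 7898 common and 521 of 6019 Runx3-only peaks. Simple repeats held 44 and 145 of these. Reads in repeats can be placed less surely, and no source used here says how the authors treated reads with several placements.

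Bcl11b was found on most common peaks and on a minority of Runx3-only peaks. A Bcl11b peak of the same line overlapped 81.1% of common peaks (80.4 to 81.7%), 61.3% of Runx1-only peaks (57.6 to 64.8%) and 35.1% of Runx3-only peaks (34.0 to 36.2%). At promoters the shares were 84.2%, 62.3% and 57.2%. Outside promoters they were 79.1%, 60.0% and 29.4%, so the gap between common and Runx3-only peaks was larger at distal sites. At Runx3 scores of 20 to 30, Bcl11b lay on 75.0% of common peaks (73.4 to 76.5%) and 37.9% of Runx3-only peaks (36.1 to 39.7%). At Runx1 scores of 20 to 30 Bcl11b lay on 80.9% of common (79.7 to 82.1%) and 61.2% of Runx1-only peaks (54.5 to 67.6%), and at 30 to 50 on 88.5% and 53.5%. At 15 to 20 the shares were 65.4% and 62.5%, with overlapping intervals. Seen from the Bcl11b list of 17874 peaks, 58.8% overlapped a common Runx peak, 14.8% a Runx3-only peak, 2.37% a Runx1-only peak and 23.7% none.

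GATA3 shared fewer of these sites, and a difference in fixing between GATA3 and the other factors, which the titles of the inputs allow, was not tested. A GATA3 peak overlapped 21.2% of common, 12.3% of Runx1-only and 15.2% of Runx3-only peaks, although the GATA3 list was the longest of the line with 36973 peaks. Outside promoters the shares were 31.4%, 23.9% and 17.7%, and at promoters 5.34%, 2.88% and 5.42%. Both Bcl11b and GATA3 lay on 26.5% of distal common peaks and on 6.78% of distal Runx3-only peaks. Neither lay on 16.0% and 59.7%. Of all GATA3 peaks, 89.2% had no Runx peak.

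Many Runx sites of the pro-T line recurred in the ILC2 line, above all at promoters. An ILC2/b6 Runx3 peak overlapped 67.1% of common, 47.0% of Runx1-only and 48.9% of Runx3-only peaks, and an ILC2/b6 Runx1 peak 50.8%, 48.8% and 19.8%. At promoters 90.2% of common peaks and 75.5% of Runx3-only peaks met an ILC2/b6 Runx3 peak, against 52.2% and 42.1% outside promoters. At promoters 29.2% of Runx3-only peaks met an ILC2/b6 Runx1 peak, against 75.6% of common peaks. The ILC2/b6 lists held 26258 Runx1 and 44938 Runx3 peaks, and a longer list meets more sites, so these shares are compared between classes within 1 list and not between lists. Of distal common peaks 46.9% had no Runx peak of either kind in ILC2/b6, and of common promoter peaks 6.21%.

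**Figure D2:**
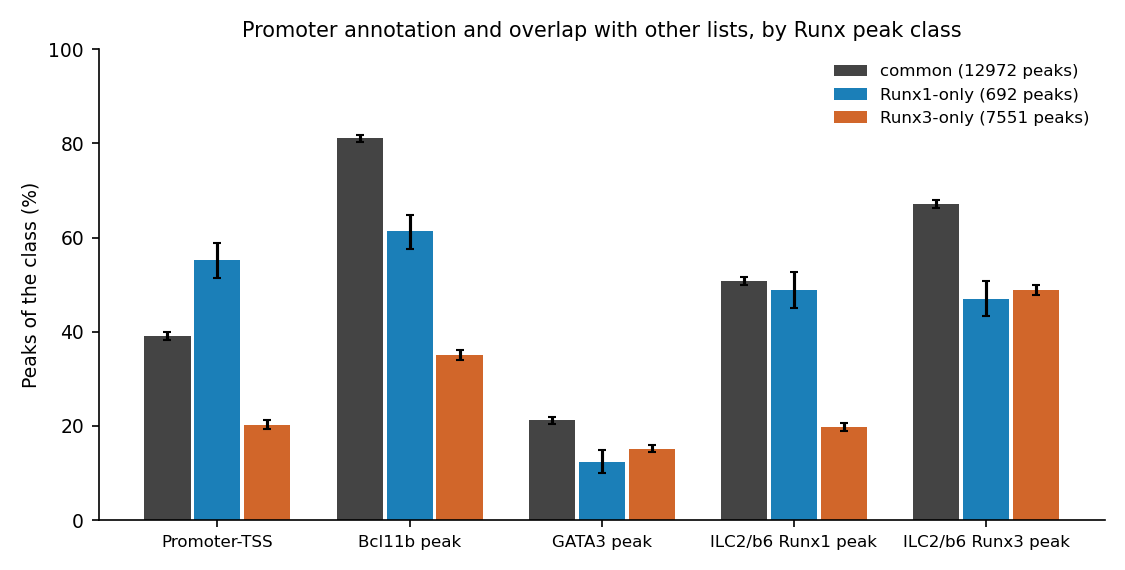
Percent of common, Runx1-only and Runx3-only peaks (y axis) that were annotated promoter-TSS or overlapped a peak of another list by at least 1 bp (x axis), with 95% Wilson intervals. The promoter share was 55.2% for Runx1-only and 20.3% for Runx3-only peaks, and the Bcl11b share fell from 81.1% of common to 35.1% of Runx3-only peaks.

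The Runx genes themselves carried common and Runx3-only peaks. Runx1 had 11 common and 9 Runx3-only peaks assigned to it as the nearest gene, and Runx3 had 6 and 2. The peak at the upstream Runx1 promoter (chr16:92826138-92826390 on mm9, 55 bp after the start) scored 137.9 in the Runx1 list, and its partner scored 314.4 in the Runx3 list. The peak at the Runx3 promoter (chr4:134676277-134676529, at -157 bp from the start) scored 225.2 and ranked 34 in the Runx1 list, and its partner scored 392.4 and ranked 50 in the Runx3 list. Both promoter peaks also met Bcl11b and both ILC2/b6 Runx lists. Cbfb had 1 common peak at its promoter and 1 Runx3-only peak 819 bp downstream of the start. Bcl11b, a known Runx target gene in T cells, had 6 common peaks, of which 1 was at the promoter, 4 in introns and 1 in intergenic sequence 113873 bp downstream of the start, and 3 Runx3-only peaks. All 6 common peaks at Bcl11b met a Bcl11b peak.

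Of the Runx genes and Cbfb, Runx3 passed the test between the guides, and the other tested members passed only under some settings. Runx1 mRNA was 19.4 and 21.3 RPKM in sgCont and 19.8 and 19.5 RPKM in sgBcl11b, and the groups overlapped. Its log2 difference on the log2(RPKM + 0.5) scale was -0.05 ± 0.06 (SE, limma adjusted p = 0.487), but it passed at -0.18 (adjusted p = 0.0132) with median-centred values, at -0.17 (0.0224) with quantile normalization and at -0.12 (0.041) without sgCont replicate 1. Runx3 mRNA was 3.07 and 3.28 RPKM in sgCont and 18.0 and 18.2 RPKM in sgBcl11b, so both sgBcl11b libraries were above both controls. It rose by 2.34 ± 0.07 (SE, limma adjusted p = 2.58e-07). In the control cells the level of Runx3 per length was thus below that of Runx1, while the Runx3 peak list was the longer. Cbfb was 46.2 and 49.0 RPKM in sgCont and 51.8 and 51.0 RPKM in sgBcl11b, a difference of 0.11 ± 0.04 (adjusted p = 0.0642), which passed at 0.15 without sgCont replicate 2 (adjusted p = 0.00389). Runx2, the family member of bone, was at most 0.054 RPKM in any library and was not tested. No ChIP was made after the guide, so binding at the raised Runx3 level was not measured.

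The 5 strongest peaks of each class all had different nearest genes. The strongest common peaks, ranked by the worse of their ranks in the 2 lists, had Selenbp1, Commd9, Grtp1, 4930591A17Rik and Btbd9 as nearest genes and scored 302.7 to 462.9 in the Runx1 list and 649.2 to 1784.2 in the Runx3 list. None of these 5 lay at a promoter, 3 were annotated to repeats and all 5 met Bcl11b. The strongest Runx1-only peak lay at the promoter of Sfr1, a homologous recombination factor (chr19:47806006-47806258, score 72.8), and a Runx3-only peak scoring 100.6 lay beside it. Their centres were at -114 and -521 bp from the start. The others had Zfp704, Hnrnpa3, Arid1a and D230017M19Rik as nearest genes, with scores of 55.8 to 60.4. The strongest Runx3-only peak was also the strongest of its whole list, at 3713.9, in intergenic sequence 25118 bp from Ly6c2 (chr15:74917121-74917377). The next ones lay in an intron of Grhl3 (score 383.9), at the promoters of Akt1s1 (342.9) and Tpgs1 (285.7) and in an intron of Gnas (285.2).

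Genes near Runx peaks were expressed at levels that differed with the class and the place of the peaks. Each peak was given to its nearest gene, and genes were sorted into those with a common peak (8296 of 24475 genes in the table), with Runx1-only peaks alone (150), with Runx3-only peaks alone (2496), with both kinds of single-factor peak and no common peak (152), and with none (13381). The median sgCont levels were 8.38 and 8.78 RPKM for genes with a common peak and 9.35 and 9.65 RPKM for Runx1-only genes. They were 1.52 and 1.54 RPKM for Runx3-only genes and 0 for genes with no Runx peak. Levels also differed within the common class. Genes with common peaks outside the promoter alone had medians of 0.422 and 0.459 RPKM, and those with common peaks at the promoter alone 14.4 and 14.9 RPKM. At least 1 RPKM in 2 libraries was required for the test, which 75.9% of common genes, 86.0% of Runx1-only genes, 54.2% of Runx3-only genes and 17.2% of genes with no Runx peak reached. A gene under 1 RPKM in both libraries of 1 guide passed only through the other guide, so such genes entered by their higher group. All counts below are over the genes that passed this filter, unless stated otherwise.

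Among genes that passed the filter, the share that differed between the guides was much the same in every class. Of 10221 tested genes, 5908 (57.8%) passed at an adjusted p under 0.05 (limma), 3589 higher (35.1%) and 2319 lower (22.7%) in sgBcl11b. In 8180 genes (80.0%) both libraries of 1 guide lay above both of the other. Of genes with a common peak 3750 of 6297 passed (59.6%), of Runx1-only genes 82 of 129 (63.6%), of Runx3-only genes 765 of 1352 (56.6%) and of genes with no Runx peak 1241 of 2307 (53.8%). These shares are near that of all genes and are no result about the classes. Rises were 60.7% of all calls, but 38.5% with median-centred and 38.4% with quantile-normalized values, both of which moved the median log2 difference of all genes from 0.05 to -0.08. Leaving out sgBcl11b replicate 1 or 2 lowered the number of calls to 3818 or 3760.

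Large rises and falls were a small share of every class. With a difference of at least 2-fold as well, 690 of all tested genes rose (6.75%) and 172 fell (1.68%), 8.43% together. Among genes with a common peak 367 rose (5.83%) and 130 fell (2.06%). Among Runx3-only genes 102 rose (7.54%) and 13 fell (0.962%), and among genes with no Runx peak 211 rose (9.15%) and 23 fell (0.997%). Of Runx1-only genes 4 rose and 3 fell. With quantile normalization falls were 2.61% of all genes, 2.92% of common, 1.85% of Runx3-only genes and 2.17% of genes with no Runx peak. Without the filter on low values rises were 4.44% of all, 5.18% of common, 5.2% of Runx3-only and 3.46% of genes with no Runx peak. Falls were then 1.04%, 1.74%, 0.686% and 0.344%. The order of rises between the classes thus depended on the filter. At a mean level of 5 to 20 RPKM rises were 5.19% of common and 4.65% of Runx3-only genes, the other way round from the whole classes. The order of the whole classes held under 5 RPKM (11.9% and 13.1%) and at 20 RPKM and over (3.79% and 7.35%). Genes with a common peak overlapped by Bcl11b had 8.44% of such differences, the share of all genes, with 2.3% falls, and genes whose common peaks all lacked Bcl11b had 4.26%, with 0.487% falls. Among Runx3-only genes the order was the opposite, 7.7% with Bcl11b (0.758% falls) and 9.64% without (1.25% falls).

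The share of large falls differed with the place and number of common peaks. Of 3530 genes with common peaks at the promoter alone, 0.34% fell at least 2-fold (95% interval 0.195 to 0.593%) and 2.07% rose. Of 1615 genes with common peaks outside the promoter alone, 4.95% fell (4.0 to 6.12%) and 12.4% rose. The 1152 genes with both kinds lay between, at 3.3% and 8.07%. With quantile normalization the falls were 0.765%, 6.81% and 4.08% and the rises 1.42%, 9.47% and 6.16%, in the same order. The filter kept 94.5% of genes with promoter peaks alone and 48.2% of those with peaks outside alone. Without it falls were 0.324%, 3.02% and 3.16% and rises 2.03%, 8.35% and 7.65%, in the same order. The share of falls with peaks outside alone was then below the interval of the main value. The median sgCont level of the tested genes was 16.0 RPKM with promoter peaks alone and 9.28 RPKM with peaks outside alone, and its part in the difference was not tested. With 1 common peak 0.975% of 4515 genes fell, with 2 peaks 3.86% of 1061, with 3 or 4 peaks 5.58% of 538, with 5 to 9 peaks 8.54% of 164 (5.15 to 13.8%) and with 10 or more 5.26% of 19, which is 1 gene. Rises were 3.99% with 1 peak and 10.3%, 10.8%, 11.0% and 10.5% in the bins above. With quantile normalization falls at 1 peak were 1.66%, outside the interval of the main value (0.727 to 1.31%). From 1 peak to 5 to 9 peaks, genes with more common peaks were also longer, with a median span of 19.1, 25.2, 43.2 and 78.0 kb, and the part of gene length was not tested. Genes are not replicates, and these intervals cover counting only.

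**Figure D3:**
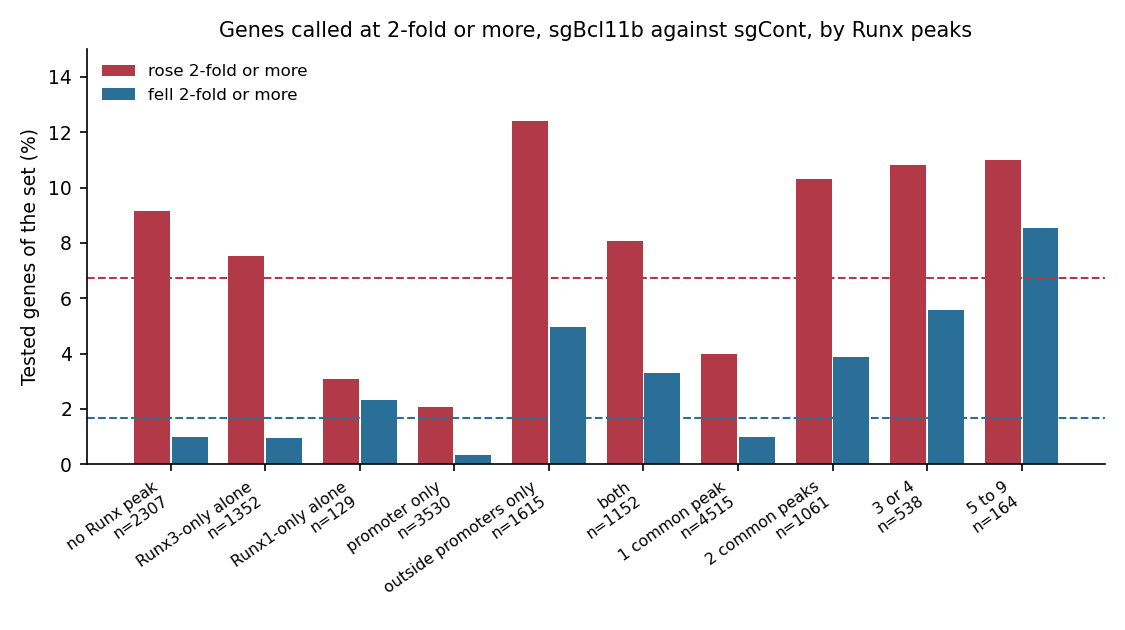
Percent of tested genes that rose or fell at least 2-fold with an adjusted p under 0.05 in sgBcl11b against sgCont (y axis), by gene class, place of the common peaks and number of common peaks (x axis). Dashed lines mark the share of all tested genes. Falls were 0.34% of genes with promoter peaks alone, 4.95% with distal peaks alone and 8.54% with 5 to 9 common peaks, against 1.68% of all tested genes.

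T-lineage factor genes had the highest median number of common peaks of the 12 gene lists. Of 22 T-lineage transcription factors 19 had a common peak, with a median of 4.5 common peaks a gene, against 33.9% of all genes in the table and 61.6% of tested genes with any. Of 19 tested, 10 rose and 6 fell (median log2 difference 0.22, and 0.05 over all genes), but 9 rose and 9 fell with median-centred values. Over all tested genes 35.1% rose and 22.7% fell. Lef1, a partner of beta-catenin in thymocytes, had 9 common peaks and stood at 34.9 and 41.1 RPKM in sgCont against 8.27 and 8.2 RPKM in sgBcl11b. Both sgBcl11b libraries were lower, a fall of -2.13 ± 0.08 on the log2 scale (SE, limma adjusted p = 8.07e-07). Myb, a factor of proliferating progenitors with 1 common and 2 Runx3-only peaks, was 76.0 and 82.0 RPKM in sgCont and 26.6 and 25.6 RPKM in sgBcl11b, a fall of -1.58 ± 0.05 (adjusted p = 3.75e-07). Id2, an inhibitor of E proteins that is high in innate lymphoid cells, had a Runx1-only and a Runx3-only peak side by side at its promoter and a common peak farther upstream. It rose from 47.7 and 43.2 RPKM to 214 and 218 RPKM.

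Of 24 T-cell receptor and signalling genes 18 had a common peak. Of 17 tested 9 rose and 6 fell (median log2 difference 0.16), against 7 and 7 with median-centred values. Of all tested genes 61.6% had a common peak, 35.1% rose and 22.7% fell. Rag1, a recombinase subunit, whose promoter is printed above, had a common promoter peak scoring 67.3 in the Runx1 list and 110.5 in the Runx3 list. It was at 64.1 and 75.7 RPKM in sgCont and 11.7 and 11.0 RPKM in sgBcl11b, with both sgBcl11b libraries lower (log2 difference -2.57 ± 0.08, adjusted p = 3.48e-07, limma). Cd2 and Cd28, which encode an adhesion molecule and a costimulatory receptor, had 3 and 5 common peaks and rose by 1.32 and 1.3 on the log2 scale.

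Notch receptors and response genes moved downward. Of 12 genes 11 had a common peak, and of 10 tested 1 rose and 9 fell, with a median log2 difference of -1.74. Over all tested genes 61.6% had a common peak, 35.1% rose and 22.7% fell. The counts of the Notch genes were also 1 and 9 with median-centred and with quantile-normalized values. Notch3, a receptor, was 13.8 and 17.7 RPKM in sgCont and 3.33 and 3.28 RPKM in sgBcl11b. Hes5, a repressor induced by Notch, was 14.2 and 15.7 RPKM and then 3.75 and 3.67 RPKM. Both carried 1 common peak and no other, and in both the sgBcl11b libraries lay below the controls. Ptcra, which pairs with the beta chain before alpha is rearranged, fell from 31.6 and 31.1 RPKM to 7.96 and 7.88 RPKM, and had a Runx3-only peak at its promoter and a common peak upstream. Il2ra, the high-affinity interleukin 2 receptor chain, had 6 common peaks, the strongest of them at chr2:11544816-11545068 with scores of 154.0 and 174.1, and fell from 150.3 and 168 RPKM to 44.3 and 42.8 RPKM.

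Most of the tested NK and cytotoxic genes rose. Of 14 tested among 26, 12 rose and 1 fell, with a median log2 difference of 3.82, where 35.1% of all tested genes rose. Members low in sgCont, such as Tyrobp, passed the filter only through the sgBcl11b libraries and so could only rise. Without the filter on low values 18 of 24 rose and 1 fell (median 1.36), where 34.7% of all genes passed the test in either direction. Of the 26 genes 11 had a common peak, 4 had Runx3-only peaks alone, none had a Runx1-only peak and 11 had no Runx peak, against 33.9% of all genes in the table with a common and 54.7% with no Runx peak. Il2rb, the shared chain of the interleukin 2 and 15 receptors, had no common peak but 2 weak Runx3-only peaks, at its promoter (chr15:78325494-78325750, score 15.9) and upstream (chr15:78342472-78342728, score 19.2). Nkg7, a granule protein, had 1 Runx3-only peak (chr7:50694052-50694308, score 24.7) and was at 0.992 and 1.5 RPKM in sgCont and 43.2 and 42.6 RPKM in sgBcl11b. Tyrobp, a signalling adaptor, and Ccl5, a chemokine, each had 1 common peak. Tyrobp rose from 0.123 and 0.206 RPKM to 11.3 and 11.2 RPKM, and Ccl5 from 1.61 and 1.81 RPKM to 35.8 and 37.3 RPKM. The summed NK markers given above (0.28 and 0.288 RPKM against 39.4 and 38.2 RPKM) moved with these genes. All of these markers are themselves members of this list, so their sum is no separate readout. The part of a change in cell type was not tested. In bulk samples a change in the number of cells of a type and in RNA per cell cannot be told apart.

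Type 2, trafficking and cytokine genes were mixed in their peaks. For comparison, 33.9% of all genes in the table and 61.6% of tested genes had a common peak, and 35.1% of tested genes rose and 22.7% fell. Of 16 type 2 and ILC2 genes 7 had a common peak, and of 11 tested 7 rose and 3 fell (median log2 difference 1.56). Rora, a nuclear receptor needed for ILC2 development, had 14 common peaks and no single-factor peak, and rose from 6.37 and 6.83 RPKM to 20.8 and 20.1 RPKM. Arg1, an arginine-degrading enzyme, had 1 common peak and rose by 3.99. Csf2, a myeloid growth factor, had 1 Runx3-only peak and rose by 3.65. Of 18 trafficking genes 14 had a common peak, and of 13 tested 9 rose and 2 fell (median 1.73). Cxcr6, a chemokine receptor whose promoter is printed above, was 0.508 and 0.595 RPKM in sgCont and 11.1 and 11.1 RPKM in sgBcl11b (log2 difference 3.47 ± 0.09, adjusted p = 1.71e-07, limma). Klf2, a regulator of T-cell egress, had 7 common peaks and rose by 2.29. Of 23 cytokine receptors and signal regulators 16 had a common peak, and of 17 tested 10 rose and 5 fell (median 0.47). Among them Socs3, an inhibitor of cytokine signalling with 4 common peaks, fell by 1.69 on the log2 scale. Some members, such as Cxcr6, passed the filter only through the sgBcl11b libraries. Without the filter on low values the type 2, trafficking and cytokine lists had medians of 0.47, 0.72 and 0.07. Then 7 of 15, 12 of 18 and 11 of 23 rose, and 2, 3 and 6 fell.

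All 22 interferon response genes were tested and rose, against 35.1% of all tested genes, with a median log2 difference of 2.32. Of them 9 had a common peak, 5 Runx3-only peaks alone and 8 no Runx peak. Over all tested genes these classes held 61.6%, 13.2% and 22.6%. Igtp, an interferon-induced GTPase whose promoter is printed above, had a Runx3-only promoter peak scoring 20.7. It was at 45.1 and 38.3 RPKM in sgCont and 292 and 291 RPKM in sgBcl11b. Oasl2, a member of the oligoadenylate synthetase family, had a Runx3-only peak scoring 15.6 in its first exon, 405 bp after the start (chr5:115347220-115347476), and rose from 0.746 and 0.691 RPKM to 22.1 and 22.6 RPKM. Oasl2 passed the filter only through the sgBcl11b libraries. Without the filter on low values all 22 genes of the list also rose, with a median of 2.32. Igtp has close relatives in the genome, as do the Ly6 and Gimap genes named here, so reads may have been split among them.

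Cell cycle and ribosomal protein genes had small median differences. For the lists below, 33.9% of all genes in the table had a common peak, and 35.1% of tested genes rose and 22.7% fell. Of 20 cell cycle genes 15 had a common peak, against 61.6% of all tested genes, and 2 rose and 9 fell (median log2 difference -0.07), a share of calls near the 57.8% of all tested genes. With median-centred values 0 rose and 17 fell. Of 20 ribosomal protein genes 11 had a common peak, and none rose and 14 fell (median -0.2), against 2 and 3 with quantile normalization and 1 call when either sgBcl11b library was left out. Of 20 progenitor and myeloid genes 6 had a common peak and 4 were tested, of which 3 rose and 1 fell (median 0.84). Without the filter on low values 15 were tested, of which 5 rose and 2 fell (median 0.03). Over all genes 34.7% then passed the test in either direction. Spi1, which encodes the myeloid factor PU.1, went up from 0 and 0.02 RPKM to 3.31 and 2.71 RPKM. The summed myeloid markers, of which Spi1 is one, moved with it. Spi1 passed the filter only through the sgBcl11b libraries. Of 16 Runx family, partner and corepressor genes 14 had a common peak, and of 14 tested 6 rose and 2 fell (median 0.08). These 8 calls of 14 are a share near that of all tested genes. The counts were 4 and 5 with median-centred values and 6 and 5 with quantile normalization. Tle3, a corepressor that binds Runx proteins, had 3 common peaks and 1 Runx1-only peak and rose from 20.7 and 20.9 RPKM to 34.6 and 35.4 RPKM.

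Few genes had Runx1-only peaks alone. Those with the largest rises were Tapbpl, Cited2, Plk3, Psme2 and Bpnt1, from 2.16 down to 0.93 on the log2 scale. Cited2, a transcriptional coregulator whose promoter is printed above, had 2 Runx1-only peaks scoring 17.7 and 18.6 and no Runx3 peak. It was at 8.75 and 7.46 RPKM in sgCont and 28.4 and 28.9 RPKM in sgBcl11b, with both sgBcl11b libraries higher (1.76 ± 0.08, adjusted p = 1.76e-06, limma). Psme2, a proteasome activator subunit, went from 155 and 145 RPKM to 311 and 323 RPKM. The largest falls were -1.06 for Akap2 and for Pakap, which are overlapping genes and count as 1 change, -1.01 for Cth, -0.85 for Tmem107 and -0.81 for Aldh4a1. Yy1, Kdm6b, 4930465M20Rik and Ly86 had the most Runx1-only peaks, 3 each, and all of them also had common peaks.

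Genes with Runx3-only peaks alone held some of the largest rises. These were Il2rb, Ly6a, Nkg7, Gimap4 and Stk32c, from 5.86 down to 4.5 on the log2 scale. For Stk32c the Runx3 record of a common pair names the gene as nearest while the Runx1 record does not, so its class depends on the record used. Ly6a, a surface protein of activated lymphocytes, was 5.13 and 3.37 RPKM in sgCont and 172 and 172 RPKM in sgBcl11b. The largest falls were Mgarp, Rhox8, Akap12, Bnip3 and Prox1, from -2.24 to -1.64. In Mgarp (5.87 and 2.33 RPKM) and Bnip3 (41.7 and 25 RPKM) the control libraries lay far apart, as they did in Ndrg1 (117 and 45.9 RPKM) and Ankrd37 (29.1 and 14.2 RPKM), which have common peaks. In all 4 of these genes both sgBcl11b libraries were still below both controls.

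**Figure D4:**
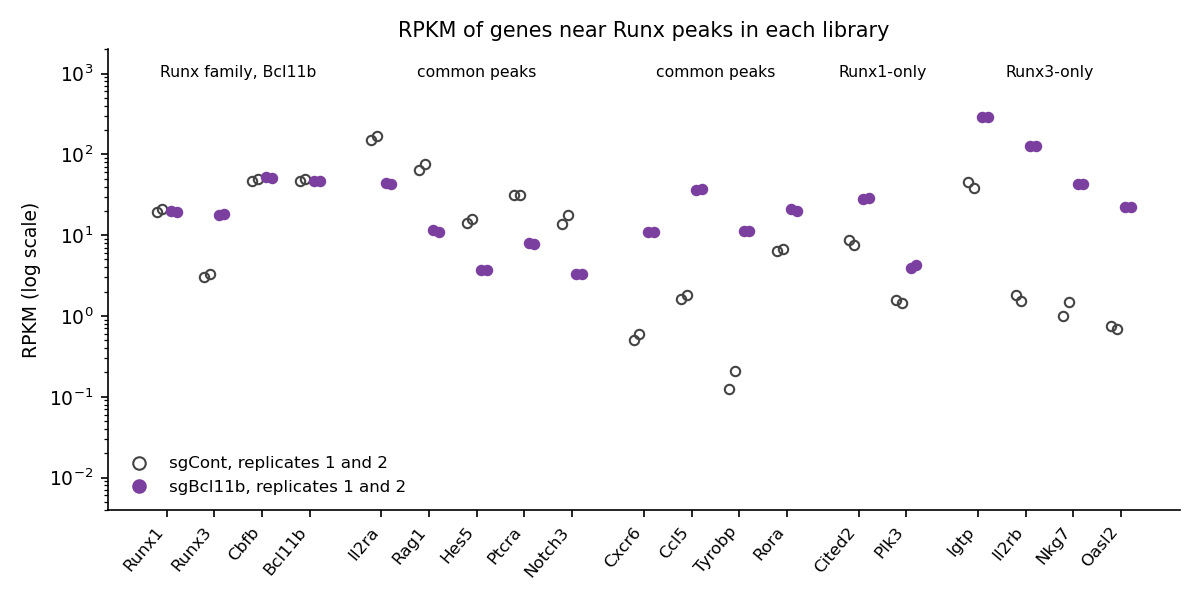
RPKM on a log axis (y axis) in each sgCont and sgBcl11b library (points) for genes named in the text (x axis), grouped by the kind of Runx peak they carry. Rag1 fell from 64.1 and 75.7 to 11.7 and 11.0 RPKM, while Il2rb rose from 1.83 and 1.53 to 126 RPKM in both libraries.

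Genes nearest to the strongest peaks, or with the most peaks, did not all differ between the guides. Selenbp1, Grtp1 and 4930591A17Rik, nearest to 3 of the 5 strongest common peaks, did not pass the filter, and Commd9 and Btbd9 had log2 differences of -0.06 ± 0.07 (adjusted p = 0.487, limma) and 0.07 ± 0.07 (adjusted p = 0.404). Mir7094-2, with 21 common peaks the most of any gene, was at 0 in all 4 libraries, and Efna5, with 15 Runx3-only and 13 common peaks, was at most 0.019 RPKM. Ly6c2 rose from 0.308 and 0.458 RPKM to 46.5 and 42.6 RPKM. It has a common peak as well as the strongest Runx3-only peak of the list.

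The RUNX core letters were present in a minority of promoters in every class. Over 22862 genes with a single RefSeq promoter entry (GRCm38.p6, 250 bases before to 50 after the start), TGTGGT on either strand lay in 17.1% of all promoters, 13.7% of those with a common promoter peak (381 of 2774), 7.53% with Runx1-only peaks (14 of 186), 14.0% with Runx3-only peaks and 18.1% with none. Among tested genes the shares were 12.4% of all, 13.4% common, 7.3% Runx1-only, 13.0% Runx3-only and 12.0% with none. The ETS letters CCGGAAG lay in 9.12% of all promoters, 28.7% of common, 15.6% of Runx1-only, 20.8% of Runx3-only and 5.29% of promoters with no Runx peak, and in 28.9%, 14.0%, 22.0% and 16.9% of these classes among tested genes. The GATA letters AGATAA lay in 11.5% of all and 4.54% of common promoters, and among tested genes in 6.04% and 4.68%. The median share of G and C was 52.3% over all promoters and 62.7%, 61.0% and 59.3% for common, Runx1-only and Runx3-only ones, and its part in the motif shares was not tested. None of these motifs contains another, and absence of these letters from a window says nothing more than that.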

How the data were processed

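The authors deposited 1 HOMER peak list per factor and line, with a peak score and gene annotation per peak, and 1 table of RPKM values per RNA library. A single list covers 2 replicate libraries together, annotated on mm9, per the file headers. The score of a peak is the authors' own value and was used only within its list. The submitters' processing notes name Bowtie 1.1.1, HOMER, STAR 2.4.0, RSEM 1.2.25 and edgeR 3.6.8, and as builds NCBIM37 and mm9, without roles. The deposited RPKM values were whole multiples of 1 read (100.0% of low values within 0.1 read), which gave the depth of 34.7 to 43.7 M reads. On a 2 kb gene 3 reads were worth 0.0343 to 0.0432 RPKM.

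Peaks were matched to genes by the annotated Entrez ID or RefSeq ID, leaving 2 Runx1 and 5 Runx3 peaks without a gene. Common peaks were given the gene of the Runx1 record; by the Runx3 record 15 genes of the Runx3-only class, 1 of the Runx1-only class and 126 with no Runx peak would have a common peak. RPKM were tested as log2(RPKM + 0.5) with limma 3.58.1 in R 4.3.3, over genes with at least 1 RPKM in 2 libraries, with Benjamini-Hochberg adjustment over all of them and a threshold of 0.05; the fold changes of low genes are understated on this scale. Intervals are Wilson intervals at 95% from scipy 1.17.1 under Python 3.11.15. Promoters came from RefSeq on GRCm38.p6. The labels do not say whether replicate numbers pair the libraries, and the main fit used no pairing. The correlation of the replicate deviations between the guides was 0.04, which cannot settle how the libraries were made.

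Named genes were the Runx genes and Cbfb; per class the 5 strongest peaks, the 5 genes with the most peaks and the 5 largest rises and falls; and 2 to 4 members per gene list. Bcl11b was added as the guide's target. The members and lists were chosen with earlier results of these data known. Alternatives were the overlap rule, a median score minimum, a 2 kb promoter, a 50 kb distance limit, pseudocounts of 0.1 and 1, no filter, median-centring, quantile normalization, a replicate block and leaving out each library.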

Additional observations from a re-analysis of the deposited data

How the results depend on the processing

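With 1 list per factor, no difference in binding could be set against replicates, and with 2 libraries a group the calls rest on few libraries. Requiring an overlap of 50% of the narrower peak, the common share was 92.1% of Runx1 and 61.3% of Runx3 peaks. The shares for common, Runx1-only and Runx3-only peaks were then 38.2%, 59.7% and 22.1% at promoters, 76.8%, 53.5% and 32.1% with Bcl11b, 19.2%, 8.8% and 12.9% with GATA3, 48.1%, 47.5% and 18.0% with ILC2/b6 Runx1, and 63.1%, 40.0% and 45.0% with ILC2/b6 Runx3. With peaks at or above the median score of their list, where single-factor peaks by construction include those whose partner fell below it, the common shares were 92.7% and 61.8%. The class shares were then 36.6%, 65.9% and 27.7% at promoters, 90.3%, 78.5% and 59.8% with Bcl11b, 24.6%, 10.2% and 18.8% with GATA3, 57.7%, 69.7% and 36.4% with ILC2/b6 Runx1, and 70.0%, 66.1% and 61.2% with ILC2/b6 Runx3. Within 2 kb of a start lay 46.6%, 65.2% and 31.0%. The mean of the sgCont medians was 9.44 RPKM for common and 2.89 RPKM for Runx3-only genes with peaks within 50 kb, and 1.7 RPKM for Runx3-only genes with the 50% overlap. Leaving out 1 library gave 3760 to 6878 calls in all, 2406 to 4318 for common, 44 to 91 for Runx1-only, 478 to 895 for Runx3-only and 795 to 1484 for genes with no Runx peak, with 3818 and 3760 calls in all without sgBcl11b replicate 1 and 2, and 6560 and 6878 without sgCont replicate 1 and 2. The cause was not tested. Of 96 shares of genes by place and number of common peaks under alternatives chosen after seeing the data, 9 lay outside the interval of the main value. With the replicate block 5921 genes passed against 5908, and whether the libraries are paired is not stated. Of 81 called named genes 75 kept call and direction in all 10 alternatives and 6 lost the call in at least 1. Dynlt1f turned from -0.18 to 0.01 with quantile normalization, and the cause was not tested.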
